A study of Mus musculus with 3 samples.

Results

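NK cells from the lungs of mice injected with tumor cells 14 days earlier were compared with NK cells from the lungs of naive mice. The comparison was made gene by gene over the whole transcriptome. Cells were taken as lung cells when the hashtag antibody B0304 made up 90% or more of the counts of the 2 tags, and when 800 to 5000 genes were detected and at most 6% of counts came from mt- genes. By this rule 3676 cells of the naive library and 3575 cells of the 14-day library were lung cells, 7251 of the 21754 cells of all 3 libraries that passed the filters on genes and mt- counts. All mice were wild-type females of 9 weeks. Naive mice were untreated, and the other mice received PyMT mammary tumor cells intravenously 14 days before sacrifice. From lung and blood, viable cells positive for NK1.1 and NKp46 were sorted, given a tag for their tissue and loaded together on a droplet platform for 3′ RNA, so that lung and blood cells of a time point share 1 library. A further library from 6 h after injection is given beside the comparison only. B0304 was read as the lung tag from the order in which the methods list the tissues and the tags (B0304, B0306). The mice within a library cannot be told apart. With 1 library for each time point there is no replicate, no test was made, and the time point cannot be told apart from the library.

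NK cells are innate lymphocytes that kill by releasing perforin and granzymes from cytotoxic granules. In the mouse they mature from Cd27-expressing to Itgam-expressing (CD11b+) cells, which circulate under the control of S1P receptors and the transcription factors Klf2 and Zeb2. TGF-β turns part of their program toward that of tissue-resident ILC1, with the integrin CD49a (Itga1) as a hallmark, and type I interferon induces an antiviral set of genes through the factor ISGF3, which binds a DNA element with GAAA repeated after a spacer.

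The naive lung cells held 23468585 counts of unique molecules (UMIs) and the 14-day lung cells 28177180, with a median of 5909 and 6999 UMIs and of 2460 and 2535 genes per cell. The median share of mt- counts was 2.93% and 2.94%. The 10 NK cell markers fixed for this check were all above 10 CPM (counts scaled to the same total in every group), and summed to 21018 CPM in naive and 17493 CPM in 14-day lung. Klrb1c, which encodes NK1.1, was at 1071 and 1052 CPM, and Ncr1, which encodes NKp46, at 896 and 665 CPM. Markers of other cell types were low. The 11 macrophage and monocyte markers summed to 8.65 CPM in naive and 49.3 CPM in 14-day lung, the 7 neutrophil markers to 12.4 and 0.639 CPM, the 7 erythrocyte and platelet markers to 1.62 and 90.1 CPM, and the 8 epithelial and tumor markers to 1.15 and 7.06 CPM, with Krt19 at 0 in both. T cell markers summed to 492 and 571 CPM, endothelial markers to 126 and 132 CPM, B cell markers to 35.8 and 56.5 CPM, fibroblast markers to 0.724 and 0.355 CPM with Pdgfra at 0, and ILC2 markers, which include Klrg1 of NK cells, to 248 and 185 CPM. The T cell and endothelial sums rested mostly on Trbc1, Trbc2, Pecam1 and Calcrl and hide changes of low genes. Cd3d was at least 2-fold higher, at 6.31 and 15.97 CPM, and Cd3e was at 1.66 and 5.04 CPM. Cd8a (0.170 and 0 CPM) and Cd5 (0.341 and 0.248 CPM) were too low for a direction to be read. Cdh5, Cldn5 and Tmem100 were at 0 CPM in naive lung and at 1.17, 1.14 and 0.994 CPM at 14 days. Calcrl fell from 76.8 to 45.6 CPM and Pecam1 rose from 49.4 to 82.5 CPM. Kdr, at 0.128 and 0.0710 CPM, was too low for a direction to be read. The limit for free RNA was 3.02% of naive and 0.729% of 14-day counts, over lung and blood cells together. It was set by the marker with the lowest limit, Hba-a1 in naive and S100a9 in 14-day cells. The 2 libraries shared 11 cell barcodes.

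Lung NK cells at 14 days had at least 2-fold more RNA of 8 genes of a residency list, 15 interferon-stimulated genes, 8 ribosomal protein genes and the TGF-β list genes Pmepa1 and Tgfb1. They had at least 2-fold less of the egress genes Klf2, Klf3 and S1pr1, of Zeb2, a factor of NK cell maturation, and of the IL-12 receptor gene Il12rb2. Of 8108 genes that reached 10 CPM in one or both groups, 140 (1.73%) were at least 2-fold higher and 149 (1.84%) at least 2-fold lower at 14 days, and this fold stands in for a call. These shares are the background for every count of list members below, and at them a short list can readily hold none past the fold. In blood cells of the same libraries 10 genes (0.123%) were 2-fold higher and 11 (0.136%) lower, and in lung cells of the 6 h library against the same naive cells 5 (0.0624%) were higher and 0 lower. Intervals throughout are exact 95% intervals and cover counting error only, not the spread between mice or libraries. For the 289 genes past 2-fold in lung, none of these intervals of the log2 ratio reached 0. At this depth the floor of 10 CPM and the 2-fold rule ensure this, so it adds no weight to the calls. The median gene with at least 50 CPM lay at -0.25 in lung and at -0.20 in blood on the log2 scale, and ribosomal protein genes took 13% of naive and 22.6% of 14-day lung counts. When the median gene was set to 0, 259 genes (3.19%) were 2-fold higher and 67 (0.826%) lower, so that higher genes made up 79.4% of those past the fold in place of 48.4%. Of the lower genes named above, Klf2 and Il12rb2 stayed past 2-fold at this setting. Klf3, S1pr1 and Zeb2, with log2 ratios of -1.06, -1.04 and -1.03 at the main scaling, did not. At 1.5-fold 376 genes (4.64%) were higher and 881 (10.9%) lower.

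**Figure D1:**
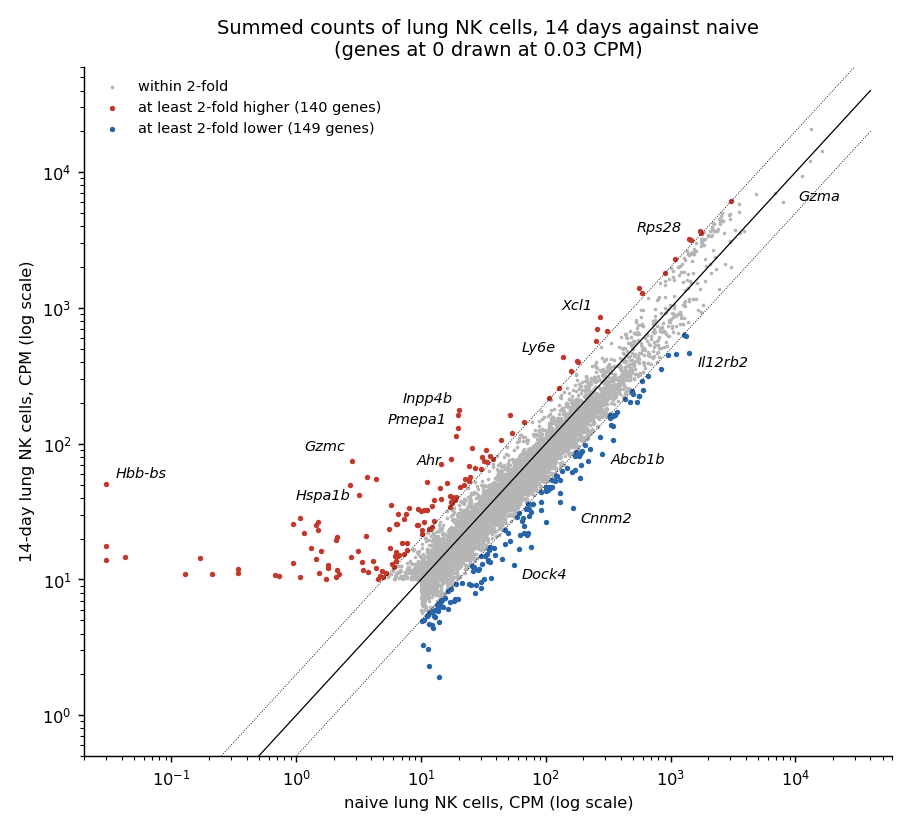
CPM of summed counts in naive lung (x axis) and 14-day lung (y axis) NK cells, both on log scales, for the 8108 genes that reached 10 CPM in one or both. Red and blue points are the 140 and 149 genes at least 2-fold higher and lower, dotted lines mark 2-fold, and genes far to the left such as Hbb-bs and Gzmc start from under 3 CPM.

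Genes of tissue residency and ILC1 had the highest median log2 ratio of the lists, 2.28, which lay between 0.83 and 2.54 over the alternative settings. Their median in blood was 0.57, and 9 of the 13 measured had a larger ratio in lung than in blood. Medians over all genes tested were -0.19 in lung and -0.15 in blood. The share of all genes tested with a larger ratio in lung was not computed. Of 17 listed genes 13 had 10 CPM, and 8 of these were at least 2-fold higher and 1 lower, beside 1.73% and 1.84% of all genes tested. Some of the 8, such as Gzmc and Tnfsf10, reached 10 CPM only at 14 days. Their place among the 13, and with it the counts and the median, rests on the group where they were high. Levels in blood had no part in the choice. Inpp4b, a phosphoinositide phosphatase gene at chr8:81342556-82127914 of GRCm38, was at 20.3 (95% CI 18.5 to 22.2) CPM in naive lung, 28.2 CPM at 6 h and 177 (172 to 182) CPM at 14 days, a log2 ratio of 3.12 (2.99 to 3.26). In blood it was at 24.1 CPM in naive and 41.0 CPM in 14-day cells. Itga1 was at 14.5 (13 to 16.2), 12.2 and 70.8 (67.7 to 74.0) CPM in naive, 6 h and 14-day lung, a log2 ratio of 2.28 (2.12 to 2.45). Its blood levels were 16.5 CPM in naive and 31.5 CPM in 14-day cells. For both genes the naive and 6 h lung cells lay close together and the 14-day lung cells stood far above them.

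The other residency genes past 2-fold were the cytokine genes Ltb (19.8 to 131 CPM) and Tnfsf10, which encodes TRAIL (5.79 to 35.2 CPM), the activation marker Cd69 (37.4 to 77.5 CPM), Gzmc, Tmem176a and Tmem176b. For Tmem176a 77.2% and for Tmem176b 66.1% of the 14-day UMIs lay in the 1% of cells with the most, and a UMI was found in 95 and 122 of the 14-day cells. Gzmc, a granzyme gene at chr14:56231441-56234656, was at 2.81 CPM in naive lung, 4.68 CPM at 6 h and 74.1 (71.0 to 77.4) CPM at 14 days, a log2 ratio of 4.72 (4.37 to 5.10). The Gzmc UMIs were held by few cells as well: the 1% of 14-day cells with the most held 80.4% of them. Rgs2, a regulator of G protein signalling, went the other way, from 355 to 162 CPM, a log2 ratio of -1.13. Some residency genes stayed low in both lung groups, among them Cxcr6 at 3.45 and 4.72 CPM and Zfp683, which encodes Hobit, at 0.0852 and 0.603 CPM. In naive and 14-day blood Cxcr6 was at 2.57 and 15.3 CPM, a log2 ratio of 2.57, and Zfp683 at 0.267 and 1.71 CPM. Cd160 was level, at 37.5 and 35.0 CPM.

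Pmepa1, a TGF-β-induced feedback inhibitor of SMAD signalling, stood highest in the TGF-β list. It lies at chr2:173224458-173276533 of GRCm38 and was at 19.7 (17.9 to 21.6) CPM in naive lung, 35.3 CPM at 6 h and 162 (157 to 167) CPM at 14 days, against 2.17 and 4.37 CPM in naive and 14-day blood. Its lung log2 ratio was 3.04 (2.90 to 3.18) and its blood log2 ratio 1.01. Of 16 list genes with 10 CPM, out of 19, only Pmepa1 and Tgfb1 passed 2-fold, and 0 were lower. Tgfb1, the ligand gene, was at 161, 172 and 342 (335 to 349) CPM in naive, 6 h and 14-day lung and at 107 and 100.1 CPM in naive and 14-day blood. The inhibitors Smad7 and Ski followed with log2 ratios of 0.75 and 0.77, from 131 to 220.0 CPM and from 66.0 to 113 CPM. The signal transducers Smad3 and Smad4 were lower, with log2 ratios of -0.85 and -0.64, and the receptor genes Tgfbr1 and Tgfbr2 had log2 ratios of -0.63 and -0.25. Tgfbr2 lay at the median gene, and the other receptor and transducer genes named lay below it. The median of the list was 0.056, and 0.31 with the median gene at 0.

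**Figure D2:**
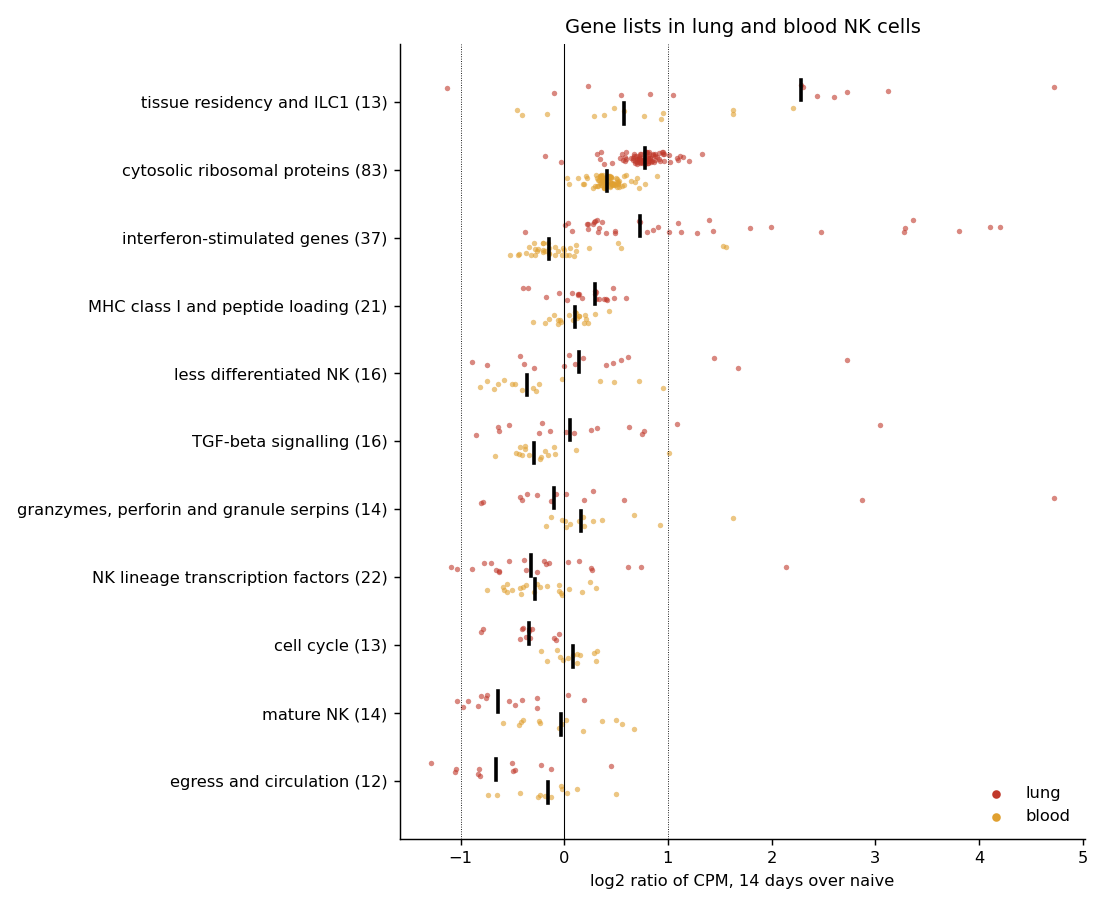
Log2 ratio of CPM at 14 days over naive (x axis) for the measured members of 11 gene lists, in lung (red) and blood (amber), with black bars at the medians and dotted lines at 2-fold; counts of measured genes stand in brackets. Residency, ribosomal protein and interferon genes lie to the right in lung with medians of 2.28, 0.78 and 0.73, and the mature NK and egress lists to the left with -0.64 and -0.66.

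Further genes among the 15 with the largest ratios at 50 CPM or more included transcriptional regulators and surface genes. Ahr, the ligand-activated transcription factor that maintains several resident lymphocytes, was at 17.5 (15.8 to 19.2) CPM in naive, 19.3 CPM in 6 h and 77.1 (73.9 to 80.4) CPM in 14-day lung, a log2 ratio of 2.14, with 6.54 and 8.09 CPM in naive and 14-day blood. Rbpj, the DNA-binding effector of Notch signalling, was at 25.4, 29.0 and 92.8 CPM in lung and at 29.3 and 28.5 CPM in blood. Plac8 went from 18.9 to 114 CPM, Dscam, an adhesion molecule gene with 54.9% of its 14-day UMIs in 1% of cells, from 4.39 to 54.8 CPM, H2ac24, a histone gene, from 16.3 to 51.6 CPM, and 1700017B05Rik from 11.2 to 52.0 CPM. Ly6e, a GPI-anchored surface protein gene, was at 137 (133 to 142), 253 and 436 (428 to 443) CPM in naive, 6 h and 14-day lung and at 186 and 285 CPM in blood, so that it was higher at 14 days in both tissues. Xcl1, the chemokine gene through which NK cells attract XCR1+ dendritic cells, was at 271 (264 to 277), 503 and 862 (851 to 873) CPM in lung, while in blood it was at 422 and 349.8 CPM. Cish, a feedback inhibitor of IL-15 signalling, was higher with a log2 ratio of 2.02 (1.78 to 2.26).

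Cxcl10, the interferon-inducible chemokine gene, went from 3.71 to 57.4 CPM and like Gzmc sat in few cells, with 79.8% of its UMIs in the 1% of cells with the most. Hbb-bs, a hemoglobin gene, had 0 counts in naive lung and 50.7 CPM at 14 days, and a single 14-day cell held 2504 of the hemoglobin UMIs among its 8754 UMIs, with 6 UMIs of Ncr1 and 14 of Nkg7. In 14-day lung 28 cells with 3 or more UMIs of the MHC class II genes H2-Aa, H2-Ab1 and H2-Eb1 held 867 of the 932 such UMIs, against 1 cell in naive lung. These 28 cells had 1010.1 CPM of Nkg7 and 201 CPM of Lyz2, and a median of 12963 UMIs. Of the 140 higher genes 31 had over 50% of their 14-day UMIs in the top 1% of cells for that gene, against 57 of all 8108 genes, and of the 149 lower genes 3 did so in naive cells. When that 1% was left out for each gene in both groups, 100 of the 140 and 135 of the 149 still had 10 CPM and were past 2-fold. Without the 13 naive and 90 14-day cells with a UMI of hemoglobin or MHC class II genes, 123 genes were higher and 149 lower. Without the 3.13% of naive and 10.965% of 14-day cells with a UMI of a macrophage, neutrophil, epithelial or fibroblast marker, 118 were higher and 141 lower. Without cells with a UMI of a marker of any other cell type on the lists, 159 were higher and 361 lower, of which 44 and 81 were among the 140 and 149, but this left out 90.8% of naive and 93.9% of 14-day cells.

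Several of the higher genes were found in a larger share of cells at 14 days. To compare shares of cells at equal depth, cells with at least 3000 UMIs, 3590 naive and 3537 14-day, were thinned to 3000 UMIs each. A Pmepa1 UMI was then found in 5.32% of naive and 27.8% of 14-day lung cells, an Itga1 UMI in 3.70% and 14.0%, and an Inpp4b UMI in 2.76% and 16.4%. For Ly6e the shares were 28.1% and 57.7%, for Tgfb1 31.7% and 45.4%, and for Ctla2a, a cysteine protease inhibitor gene, 40.7% and 60.6%. Gzmc was found in 0.613% and 3.56% of cells. The sort holds no cell type that lacks these genes, so the share that free RNA gives could not be read from such cells.

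**Figure D3:**
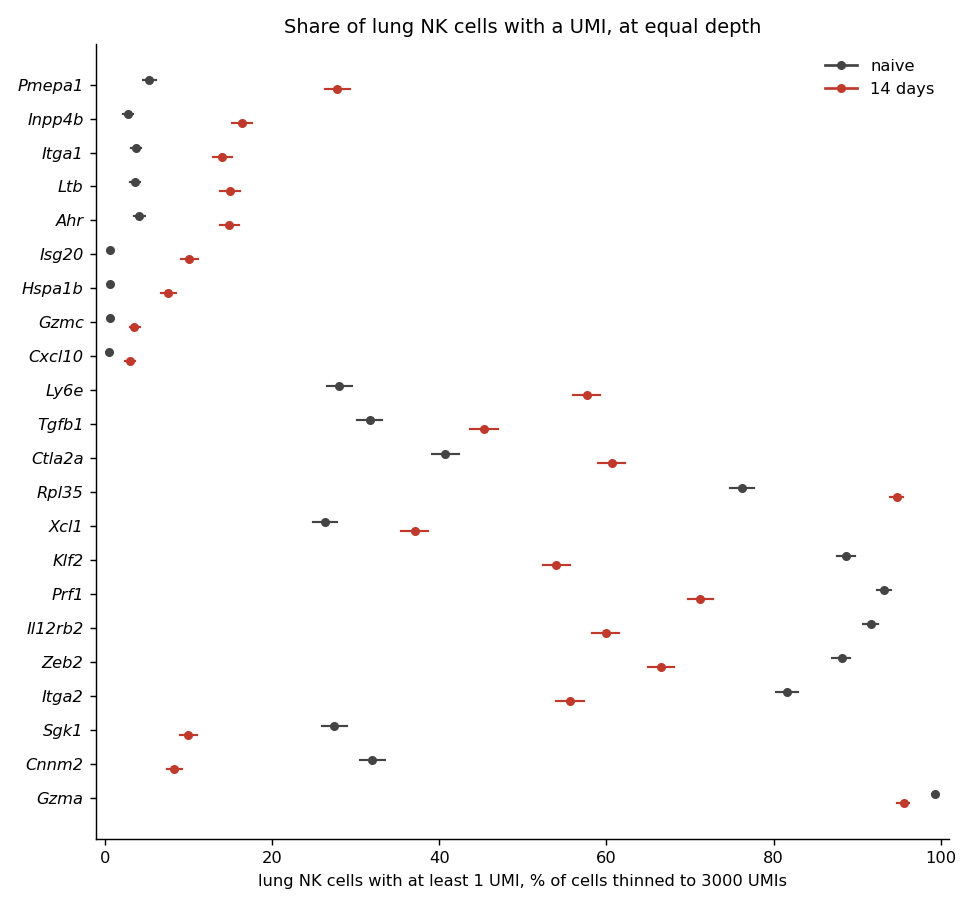
Share of lung NK cells with at least 1 UMI of each gene after thinning to 3000 UMIs (x axis, %), in naive (grey, 3590 cells) and 14-day (red, 3537 cells) lung, with exact binomial 95% intervals as lines. Shares at 14 days lie to the right for Pmepa1 to Xcl1 and to the left for Klf2 to Gzma, whose shares were 99.3% and 95.5%.

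Many interferon-stimulated genes were higher in lung, with a list median near 0 in blood. The promoters of 3 members with large ratios are shown because they hold the ISGF3-type element. They are the 250 bases before the transcript start from RefSeq on GRCm38.p6, in lower case with each match in capitals, where a match is GAAA, any 2 bases and GAAA on either strand (read from the other strand, TTTC, any 2 bases and TTTC), for Ifit3 at chr19:34583279-34583528 on the plus strand, Slfn5 at chr11:82951852-82952101 on the plus strand and Rsad2 at chr12:26456453-26456702 on the minus strand.
Ifit3: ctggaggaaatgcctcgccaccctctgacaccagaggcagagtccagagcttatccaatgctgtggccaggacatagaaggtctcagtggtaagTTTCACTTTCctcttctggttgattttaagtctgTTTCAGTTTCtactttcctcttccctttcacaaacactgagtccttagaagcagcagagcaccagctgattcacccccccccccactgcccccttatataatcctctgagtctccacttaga
Slfn5: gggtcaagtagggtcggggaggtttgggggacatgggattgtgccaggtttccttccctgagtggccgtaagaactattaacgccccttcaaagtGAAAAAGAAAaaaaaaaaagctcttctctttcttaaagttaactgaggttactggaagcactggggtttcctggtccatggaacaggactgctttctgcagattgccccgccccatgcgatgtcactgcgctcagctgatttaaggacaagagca
Rsad2: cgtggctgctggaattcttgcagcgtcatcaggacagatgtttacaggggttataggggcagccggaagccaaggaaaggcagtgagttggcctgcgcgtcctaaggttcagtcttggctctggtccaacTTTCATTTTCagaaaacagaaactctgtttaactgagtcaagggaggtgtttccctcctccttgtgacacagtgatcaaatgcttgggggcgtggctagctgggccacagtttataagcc

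Of 40 listed interferon-stimulated genes 37 had 10 CPM, and 15 of these were at least 2-fold higher and 0 lower, with a median log2 ratio of 0.73 in lung against -0.15 in blood. Several of the 15, such as Ifit3, Rsad2, Slfn5 and Isg20, reached 10 CPM only in 14-day lung. The count and the median rest in part on that group. All 37 had a larger ratio in lung than in blood, beside medians of -0.19 in lung and -0.15 in blood over all genes tested. That count too rests in part on members that entered through 14-day lung, since levels in blood had no part in the choice. The share of all genes tested with a larger ratio in lung was not computed. Ifi27l2a was 2-fold higher in blood too, with a log2 ratio of 1.53 (1.25 to 1.82) there. Ly6a had a blood log2 ratio of 1.56 (0.46 to 2.73). It rested on only 12 and 20 counts in naive and 14-day blood, under 10 CPM in both, and its interval reaches below 2-fold. Ifit3, an interferon-induced antiviral protein gene, was at 1.45 (1.00 to 2.02) CPM in naive, 1.75 CPM in 6 h and 25.0 (23.2 to 26.9) CPM in 14-day lung, a log2 ratio of 4.11, against 3.87 and 3.72 CPM in blood. Rsad2, which encodes viperin, went from 1.45 to 14.1 CPM and Slfn5 from 1.58 to 16.2 CPM, with 1.70 and 1.48 CPM and 2.84 and 2.36 CPM in blood. Isg20, an exonuclease gene, had the largest ratio of the list, 4.20 (3.84 to 4.59), at 2.68, 3.81 and 49.4 CPM in naive, 6 h and 14-day lung. Bst2, which encodes tetherin, went from 33.3 to 90.1 CPM. Ddx58 at 66.3 and 66.5 CPM and Samd9l at 143 and 110.4 CPM were not higher.

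Most of the strongest members were low genes held by a minority of cells. An Isg20 UMI was found in 0.669% of naive and 10.1% of 14-day cells at equal depth, and an Ifit3 UMI in 0.223% and 3.53%. For Ifit3 53.5% and for Rsad2 62.7% of the 14-day UMIs lay in 1% of cells, and for Isg20 22.9%. With the top 1% of cells left out for each gene the median of the list was 0.49. The element was found in the promoters of 16 of the 29 members with a RefSeq promoter (55.2%), against 3.46% of all 27025 genes with a promoter there. As the list was drawn up from interferon-stimulated genes, this excess describes the list and is no result of the 14-day cells. Of the 10 such members that were 2-fold higher, 8 held the element. Among measured members the median log2 ratio was 0.96 with and 0.52 without a match, where some members with a match, such as Ifit3 and Rsad2, reached 10 CPM only at 14 days. MHC class I and peptide loading genes, which interferon also induces, had a median of 0.29 over 21 genes, with none past 2-fold and H2-Q4 highest at 0.59.

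**Figure D4:**
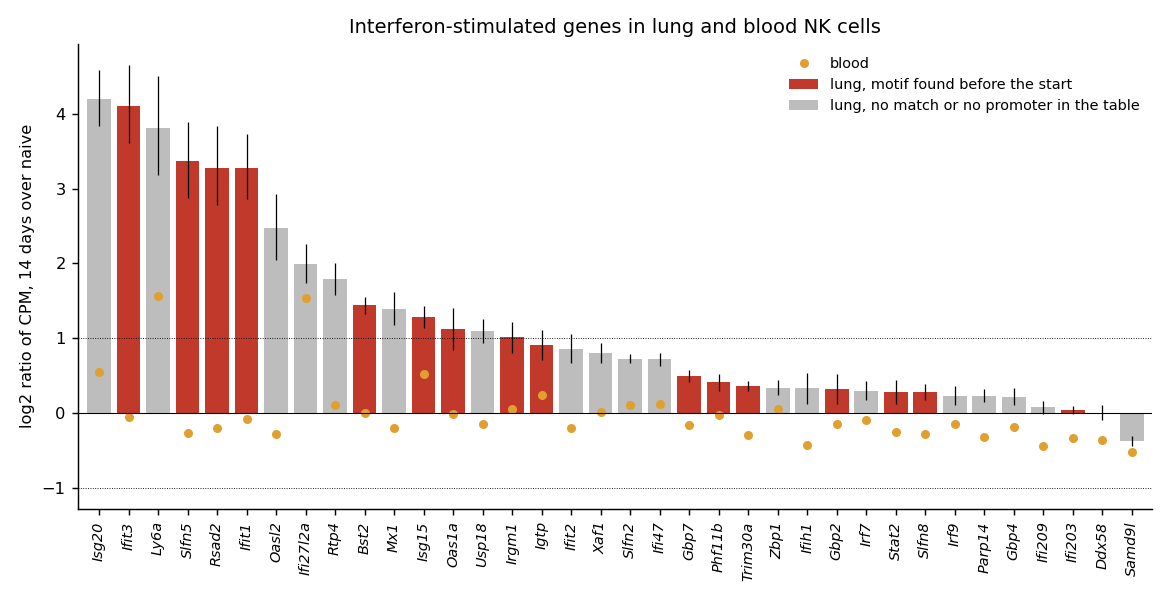
Log2 ratio of CPM at 14 days over naive (y axis) for measured interferon-stimulated genes in lung (bars, with exact 95% counting intervals) and blood (amber points). Red bars are genes whose promoter holds the element, and every bar drawn lies above its blood point.

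Heat shock proteins as a list lay near the median gene, with a median log2 ratio of -0.23 over 15 of 17 genes. Hspa1a and Hspa1b, the inducible HSP70 genes, were the exceptions, at 1.15 and 22.1 CPM and at 3.20 and 41.9 CPM in naive and 14-day lung, with 1.87 and 4.06 CPM at 6 h and at most 1.33 CPM in naive or 14-day blood. The 2 genes are near-identical neighbours, so reads may be split between them. Immediate early genes, which tissue dissociation can induce, had 4 of 20 higher (Fosb, Egr3, Dusp2 and Jun) and 1 lower (Fosl2), with a median of -0.11. Jun was at 106, 109 and 217 CPM in naive, 6 h and 14-day lung and at 34.3 and 30.8 CPM in blood. The part of the lung preparation in these values was not tested.

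Measured cytosolic ribosomal protein genes, listed by the start of their symbols, had ratios above 0 but for Rps27l (-0.19) and Rpl7l1 (-0.030). Of 87 listed genes 83 had 10 CPM, 8 of these were 2-fold higher and 0 lower, and the median log2 ratio was 0.78 in lung, against 0.41 in blood. Rpl35 was at 560.1 (551 to 569.8), 645 and 1404 (1389.7 to 1417) CPM in naive, 6 h and 14-day lung and at 608 and 1129 CPM in blood, and Rps28 at 1406, 1585 and 3236 CPM in lung. The step was larger in lung than in blood for 81 of the 83 genes, beside medians of -0.19 in lung and -0.15 in blood over all genes tested. The share of all genes tested with a larger step in lung was not computed. Short genes were higher and long genes lower in both tissues: over 5 groups of equal size, from the shortest to the longest span in the genome, the median log2 ratio went from 0.062 to -0.37 in lung and from 0.11 to -0.38 in blood. The group of longest genes held 71 of the 149 lower genes and 21 of the 140 higher genes. The cause of this trend was not tested. Genes of ribosome biogenesis had a median of 0.21 with none past 2-fold, nuclear oxidative phosphorylation genes one of 0.14 and mitochondrial genes one of -0.076.

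Many genes that were lower in 14-day lung stood above blood in the lung cells of the other libraries. The 149 lower genes had a median log2 ratio of lung over blood of 1.12 in the naive library and of 0.21 in the 14-day library. Both values, and the fall between them, are in part set by the choice of these genes. The median was 1.03 in the 6 h library, which took no part in the choice. In the 6 h library 77 of the 149 (51.7%) were at least 2-fold above blood, against 3.18% of all genes tested, and in the 14-day library 35 (23.5%) were. Cnnm2, a magnesium transport gene at chr19:46761596-46880192, had the smallest ratio among genes with 50 CPM or more, at 166 (161 to 171) CPM in naive, 134 CPM in 6 h and 33.5 (31.4 to 35.7) CPM in 14-day lung, a log2 ratio of -2.31 (-2.41 to -2.21), with 24.4 and 17.1 CPM in naive and 14-day blood. The drug efflux pump gene Abcb1b was at 279.6, 236 and 84.7 CPM in lung and at 14.6 and 16 CPM in blood, and Rundc3b, near it on the same chromosome, at 343, 273 and 106 CPM and at 65.1 and 56.8 CPM. The paralog Abcb1a, whose reads may be split with Abcb1b, was at 224 and 91.5 CPM in naive and 14-day lung. Crem, a cAMP-responsive transcription factor gene, was at 345, 284 and 135 CPM in lung and at 35.6 and 29.7 CPM in blood. For the genes given in both tissues, the naive and 6 h lung cells were highest, the blood cells lowest, and the 14-day lung cells lay between.

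**Figure D5:**
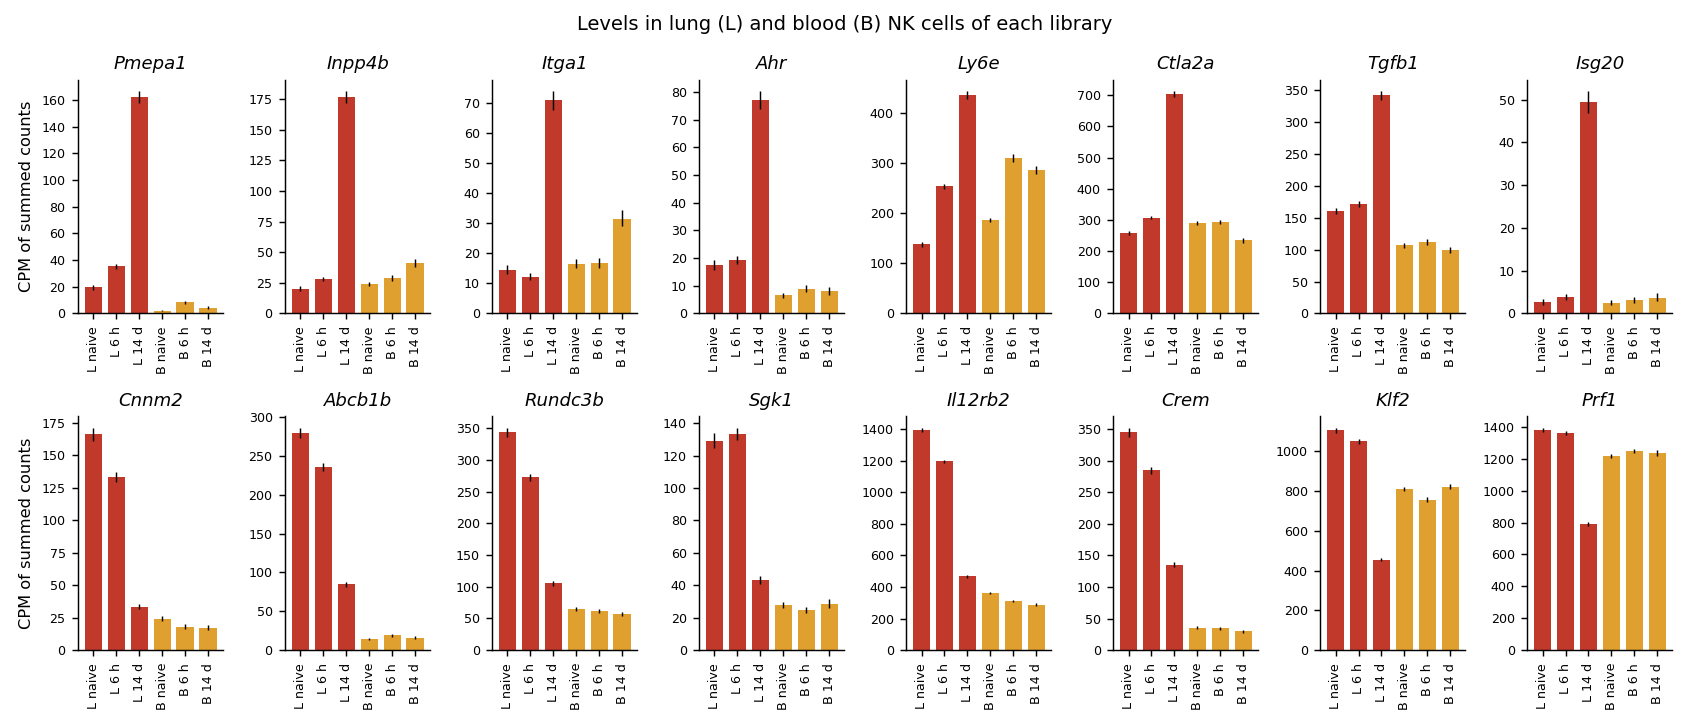
CPM of summed counts (y axis, own scale for each gene) in lung (L, red) and blood (B, amber) NK cells of the naive, 6 h and 14-day libraries, with exact 95% counting intervals. The upper row shows genes higher in 14-day lung, such as Pmepa1 at 162 CPM; in the lower row the naive and 6 h lung bars stand above the 14-day lung bar for all 8 genes, and for Klf2 and Prf1 the 14-day lung bar is also below blood.

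The other genes among the 10 with the smallest ratios at 50 CPM or more had the same order of levels in lung. Tmtc1 went from 76.0 to 17.4 CPM, Dock4, which encodes a Rac activator, from 55.9 to 12.8 CPM, Rab27b, a gene of granule secretion, from 100.0 to 26.4 CPM, Sema6a from 60.6 to 16.9 CPM, Arrdc3 from 131 to 37.4 CPM, Slc41a2, another magnesium transporter gene, from 189 to 55.8 CPM and Gm37531 from 71.2 to 21.3 CPM. All 7 lay between these values in the 6 h library. The glucocorticoid-inducible kinase gene Sgk1 was at 129, 133 and 43.1 CPM in naive, 6 h and 14-day lung and at 27.7 and 28.6 CPM in blood, and Nr3c1, the glucocorticoid receptor gene, had a log2 ratio of -1.13. They were the 2 of 12 measured glucocorticoid genes past 2-fold, and the median of that list was 0.080.

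Il12rb2, the IL-12 receptor subunit through which NK cells are driven to make interferon-γ, was at 1393 (1378 to 1408) CPM in naive, 1195 CPM in 6 h and 468 (459.9 to 476) CPM in 14-day lung, a log2 ratio of -1.57 (-1.60 to -1.55), with 360.4 and 288 CPM in blood. A UMI was found in 91.6% of naive and 59.9% of 14-day lung cells at equal depth. Stat4, its downstream transcription factor, had a log2 ratio of -0.96, from 1278 to 657 CPM. Of 24 measured receptor and signalling genes of IL-2, IL-15, IL-12 and IL-18 only Il12rb2 was 2-fold lower and only Cish and Pim2 higher. Ifng itself was at 117 and 114 CPM.

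A few genes of egress and maturation were 2-fold lower in lung, of which only Klf2 stayed so with the median gene at 0. Of 12 measured egress genes Klf2, Klf3 and S1pr1 were 2-fold lower and 0 higher, with a median log2 ratio of -0.66 in lung against -0.16 in blood. Klf2, which drives expression of the S1P receptor S1pr1, was at 1105 (1092 to 1118), 1049 and 455 (447 to 463) CPM in naive, 6 h and 14-day lung, a log2 ratio of -1.28, while blood was at 809 and 822 CPM. The integrin gene Itga4 was at 1141 and 649 CPM and its partner Itgb1 at 549 and 749.8 CPM, so that partners of 1 receptor went opposite ways. Of 14 measured genes of mature NK cells only Zeb2 was 2-fold lower, from 1289 to 631 CPM, and the median was -0.64 in lung and -0.034 in blood. S1pr1 and Zeb2 were lower in blood too, with log2 ratios of -0.74 and -0.59 there. Among the members short of 2-fold, Cma1 had a log2 ratio of -0.97, S1pr5 of -0.83, Prf1 of -0.80, Klrg1 of -0.75 and Itgam of -0.74, while Gzmb was at 0.19. Relative to the median gene 12 of the 14 were lower. Runx1 with a log2 ratio of -1.09 and Zeb2 were the lineage transcription factors past 2-fold downward, and Ahr the only one upward, of 22 measured. Itga2, which encodes CD49b, a marker of circulating NK cells, went from 844 to 356 CPM.

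Cytotoxic genes differed among themselves. Prf1, which encodes perforin, was at 1380.0 (1365 to 1395), 1364 and 790.2 (779.9 to 801) CPM in naive, 6 h and 14-day lung and at 1219.6 and 1235 CPM in blood. Gzma, the most abundant granzyme gene, was at 11315, 11619 and 9435 CPM in lung and at 10882 and 13978 CPM in blood. Its direction differed between the tissues at this scaling, but in lung its ratio lay close to the median gene. Serpinb9, an inhibitor of granzyme B, had a log2 ratio of -0.78. Gzmc and Gzmk were the only 2 of 14 measured genes of this list past 2-fold, both higher, and Gzmk reached only 11.2 CPM. Granule exocytosis genes had a median of -0.11, with Rab27a highest at 0.64 and Stx11 lowest at -0.68. None was past 2-fold, beside 1.73% higher and 1.84% lower of all genes tested.

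Genes of less differentiated NK cells had 3 of 16 members 2-fold higher, Ltb, Xcl1 and Ctla2a, and 0 lower, with a median of 0.14 in lung and -0.36 in blood. Cd27 was level, at 54.4 CPM in both groups, and Cxcr4, Emb and Ccr2 had log2 ratios of 0.044, -0.43 and -0.29. Bach2, a repressor of effector differentiation, was lower, from 804 to 434 CPM. Among checkpoint genes Ctla4 (4.09 to 13.6 CPM) and Nt5e, which encodes CD73 (10.5 to 32.7 CPM), were higher and Icos (61.5 to 30.7 CPM) was lower, of 11 measured. For Ctla4 55.4% of the 14-day UMIs lay in the 1% of cells with the most. Natural cytotoxicity and NKG2 receptor genes had none past 2-fold of 13, and of 9 measured Ly49 genes Klra10 was lower, a family of near-identical genes among which reads may be split. Measured cell cycle genes all had ratios below 0 in lung, from -0.81 to -0.05 over 13 genes, and a smaller ratio in lung than in blood. The medians over all genes tested were -0.19 in lung and -0.15 in blood, and the share of them with a smaller ratio in lung was not computed. None of 14 glycolysis genes and 16 NF-κB genes passed 2-fold, and of the BCL2 family, hypoxia and S100 lists 1 gene each did, Pmaip1 and Vegfa lower and Lgals3 higher. Of all genes tested 1.73% were higher and 1.84% lower, so counts of 0 or 1 in such short lists do not set these families apart.

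Several of the genes examined differed in the same direction within both maturation classes. How many did so was not counted. Among thinned cells those with an Itgam UMI and no Cd27 UMI made up 49.7% (48.1 to 51.4) of naive and 35.5% (33.9 to 37.1) of 14-day lung cells, and those with a Cd27 UMI and no Itgam UMI 6.63% (5.84 to 7.49) and 9.13% (8.20 to 10.1). Cells with neither made up 38.4% and 52.3%. These classes rest on single UMIs and are ranges of levels, not cell types. Pmepa1 had a log2 ratio of 3.02 (2.70 to 3.36) in cells with Itgam and 2.38 (1.80 to 3.02) in cells with Cd27, and Tgfb1 of 1.05 and 1.28. Cnnm2 was at -1.95 and -2.58 and Il12rb2 at -1.33 and -1.79. For Klf2 the ratio was -0.79 (-0.86 to -0.73) in cells with Itgam and -1.70 in cells with Cd27, and for Prf1 -0.52 (-0.57 to -0.46) and -1.08 (-1.26 to -0.91). These intervals cover counting error only, and the difference between the classes was not tested. The other egress and maturation genes past 2-fold over all lung cells had smaller differences in cells with Itgam. Zeb2 was at -0.74 there, Klf3 at -0.56 and S1pr1 at -0.40 (-0.81 to 0.003), against -1.03, -1.06 and -1.04 over all lung cells. Xcl1 differed more in cells with Cd27, with 1.56 against 0.65. Gzma was level in cells with Itgam, at 12718 and 12891 CPM, and lower in cells with Cd27, at 7361 and 5725 CPM with a log2 ratio of -0.36 (-0.42 to -0.31). The ribosomal protein list had a median of 0.60 and 0.80 in the 2 classes and the interferon list one of 0.45 and 0.66, where the median gene was at -0.20 and -0.26.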

How the data were processed

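Per the labels and methods, the authors aligned the reads with Cell Ranger to GENCODE M23 on GRCm38.p6 and deposited unfiltered UMI counts per gene or hashtag and barcode, without normalization. The methods name Cell Ranger 7.0.1 and the file headers 7.1.0. The submitters' processing notes also name Seurat 5.0.

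Cells were filtered and assigned to a tissue as given above. Counts were summed over cells of a library and tissue and scaled to CPM of all gene counts. Log2 ratios have exact intervals conditional on the 2 counts, levels exact Poisson and shares exact binomial intervals (Python 3.11.15, scipy 1.17.1). With 1 library for each group no test was made. A gene was counted as measured at 10 CPM in the higher group. The limit for free RNA came from barcodes with at most 100 counts. No doublet caller was run. Cells with both tags were left out by the 90% rule, and 342 naive, 158 6 h and 141 14-day cells were assigned to neither tissue. Gene positions and spans came from GENCODE M21, same build, matched for 99.9% of tested genes. Promoters were searched in the 250 bases before the start. The named genes were the 15 with the largest and 10 with the smallest ratio at 50 CPM or more, the 2 largest and 2 smallest of each list with 10 CPM, members the study names, and the 5 largest and 5 smallest differences between lung and blood ratios. Some items are not reported here. Other genes were named after their values were seen. The members and lists were chosen with earlier results of these data known. The ratio script was tested on simulated data. Alternatives used edgeR 4.0.16 for TMM factors.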

Additional observations from a re-analysis of the deposited data

Results flagged for a closer look

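Fosb, Gcnt2 and Ifi44 were past 2-fold in lung and past 2-fold the other way in blood, with counting intervals that did not reach 0. Each was under 10 CPM in both blood groups, as the floor of 10 CPM was not applied to blood here. Fosb, an AP-1 subunit gene, was at 14.2 CPM in naive and 47.3 CPM in 14-day lung (log2 ratio 1.73, 95% CI 1.56 to 1.91) and at 8.11 and 3.96 CPM in blood (-1.03, -1.45 to -0.64). Gcnt2, a glycosyltransferase gene, was at 30.4 and 9.65 CPM in lung (-1.65) and rested on only 35 and 41 counts in blood (1.05, 0.37 to 1.75). Ifi44, an interferon-induced gene, was at 1.79 and 12.1 CPM in lung (2.75) and rested on 72 and 19 counts in blood (-1.10). With 1 library for each time point the difference between the tissues was not tested.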

How the results depend on the processing

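No paired analysis was possible because each group is 1 library, and leaving out a replicate was not possible for the same reason. In none of the settings did a gene past 2-fold pass it in the other direction. The counts of 140 higher and 149 lower genes became 259 and 67 with the median gene at 0, 209 and 82 with TMM factors, 205 and 87 with totals free of mitochondrial and ribosomal protein genes, 48 and 83 at 50 CPM, 953 and 1089 from 3 counts on, 376 and 881 at 1.5-fold, 179 and 81 when centred within 5 groups of gene span (chosen after seeing the data), and 159 and 361 without cells with a UMI of a marker of another cell type, which left out 90.8% of naive and 93.9% of 14-day cells. Other settings gave 117 to 142 higher and 130 to 178 lower genes. In the last of the named settings, the log2 ratio of Ctla4 reversed to -0.000878 from 1.73.

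Of list medians, that of residency genes (2.28) was 2.54 with the median gene at 0, 2.46 with TMM, 1.84 with reduced totals, 1.05 from 3 counts on, 1.06 in thinned cells, 1.52 by mean cell CPM and 0.83 without other-marker cells. It was 1.62 without the 5% of cells with the most genes and, in settings chosen after seeing the data, 1.61 without cells with a UMI of macrophage, neutrophil, epithelial or fibroblast markers, 1.04 without hemoglobin or MHC class II cells and 1.48 without the top 1% of cells for each gene. That of interferon genes (0.73) was 0.98, 0.90, 0.90, 0.35 at 50 CPM, 0.84 by span, 0.41 without other-marker cells and 0.49 without the top 1%. That of ribosomal proteins (0.78) was 1.03 and 0.95, then 0.74 thinned, 0.75 by mean, 0.72 by span, and 0.76 and 0.60 without the narrower and wider set of marker cells. That of mature NK genes (-0.64) was -0.38, -0.47, -0.46, -0.46 by span and -0.33 without other-marker cells, and that of egress genes (-0.66) -0.40 and -0.22 in the first and last of these. That of TGF-β genes (0.056) was 0.31, 0.23, 0.23, 0.32 by span and -0.063 without other-marker cells. The causes of these shifts were not tested. Depth limits the low genes: at 3 counts the floor is under 1 CPM in each group.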

Other observations

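Genes of other functions, singled out after their values were seen, were also past 2-fold in lung. Among abundant signalling genes Ern1, the IRE1 sensor of unfolded proteins, was at 603, 698 and 248 CPM in naive, 6 h and 14-day lung and at 120.1 and 90.6 CPM in naive and 14-day blood. The kinase gene Lyn (494 to 245 CPM) and the PI3K subunit gene Pik3r1 (951 to 453 CPM) were lower as well, each with a value between these in the 6 h library and a lower level in blood. Among low genes Rgs10, a regulator of G protein signalling, went from 1.49 to 26.6 CPM and Jaml, an adhesion molecule gene, from 0.937 to 25.5 CPM, with at most 3.31 CPM of either in naive or 14-day blood. A UMI of Rgs10 was found in 7.01% of 14-day lung cells at equal depth, against 0.251% of naive cells.

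Lyz2, a macrophage marker, and Trf, which encodes transferrin, were among the genes whose ratio was smallest in lung relative to blood. Lyz2 was at 3.37, 26.1 and 13.5 CPM in naive, 6 h and 14-day lung and at 0.600 and 89.3 CPM in naive and 14-day blood. Trf was at 65.5 and 28.3 CPM in naive and 14-day lung and at 7.71 and 13.8 CPM in blood.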
